A study of Mus musculus with 3 samples.

Results

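The cells described here are the tumour cells recovered from mouse brain that carried metastases. They were chosen from depth-corrected UMIs (unique molecular identifiers, counts of captured RNA molecules) as cells with at least 2 of Krt8, at least 2 of Rhox5 and at most 1 of Ptprc, the gene of the leukocyte antigen CD45. The rule found 1173 of the 5933 cells of that brain, a share of 19.8% (exact 95% interval 18.8 to 20.8%), out of 11510 cells in all matrices. They are set against the other 4760 cells of the same matrix.

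All mice were females of 2 to 3 months on a C57Bl/6 background and carried Cx3cr1CreERT, a recombinase that tamoxifen activates in cells expressing Cx3cr1, which include microglia. Depleted mice also carried ROSA-iDTR, which puts a diphtheria toxin receptor on recombined cells, and control mice did not. Mice of both arms, with or without metastases, received tamoxifen and later diphtheria toxin. Metastases came from E0771, a mouse mammary tumour cell line given by the carotid artery about 2 weeks before collection, while naive brain came from mice without metastases. Blood came from mice with metastases, and the submitters state that depleted brains kept some microglia. A Percoll gradient was used on brain suspensions to enrich immune cells, so the share of tumour cells is one of recovered cells and not of tissue. The hashed samples, 8 in all, were loaded as 1 pool. The brain with metastases is treated here as 1 sample that joins both arms, because no map of its cells to arms was used. With 1 sample there is no replicate, and no test was made of any difference below. The intervals cover counting error only.

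Carcinoma cells that grow in the brain keep some genes of their tissue of origin and lie among microglia, infiltrating leukocytes and vessels. Keratins such as Krt8 form the intermediate filaments of simple epithelia. Rhox5 and Esx1 are X-linked homeobox genes best known from the reproductive tract and placenta, and genes of this kind are often active in mouse tumour lines. Interferon signals reach tumour cells as they reach leukocytes, and raise antiviral genes together with MHC class I, the proteins that show peptides to CD8+ T cells.

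The label was set beside the epithelial and tumour markers. Levels are given as CP10k, the corrected UMIs of a gene per 10000 corrected UMIs summed over a set of cells. Of the tumour markers that the rule did not use, Rbp4 was found in 98.4% of tumour cells, Fkbp11 in 97.1%, Wfdc2 in 97.4% and Sox9 in 84.0%. Rbp4, Fkbp11 and Sox9 belong to the marker set that came with the label, so their presence is no independent check of it. Some other markers of epithelium were near 0. Krt18, the usual partner of Krt8 in filaments, stood at 0.0481 CP10k in tumour cells and 0.0612 CP10k in other cells, and had a UMI in 3.58% of tumour cells. Epcam and Cdh1, which encode epithelial adhesion proteins, each had 0.0018 CP10k in tumour cells, against 0.0300 and 0.0650 CP10k in other cells. Of 30 genes listed for epithelial junctions and identity, 26 were in the matrix and 3 reached 0.5 CP10k on either side. Of these 3, 1 was at least 2-fold higher in tumour cells, 1 at least 2-fold lower and 1 within 2-fold. Over all genes at that level 34.8% were at least 2-fold higher and 27.9% lower. The summed list stood at 13.7 CP10k in tumour cells and 9.60 CP10k in other cells, so the list as a whole was not near 0. Beside the same shares, 3 of 6 mammary luminal genes at that level were at least 2-fold higher and 3 at least 2-fold lower. For 5 basal and myoepithelial genes at that level these counts were 0 and 4. The cells thus carry the tumour markers by which they were described and Krt8, but little RNA of Krt18, Epcam or Cdh1 in these values. Xist, the RNA that coats the inactive X chromosome of females, stood at 0.0217 CP10k in tumour cells and 6.59 CP10k in other cells, and was found in 2.05% and 93.6% of them.

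Depth bears on every low value in the tumour cells. They had a median of 14166 corrected UMIs (12013 to 16434) and 4114 detected genes, and other cells had 13088.5 (9243 to 19073) and 2945. These totals are even because the authors corrected each cell for depth. Raw totals were read for the members whose barcodes are also listed, with annotation, in the naive brain or the blood. The 64 members listed with the naive brain had a median of 136219 raw UMIs, and the 131 listed with the blood had 159325. Cells outside the rule had medians of 9066 raw UMIs in the naive matrix and 4668.5 in the blood matrix. After correction, a median of 40.4% of the raw detected genes were left in those 64 members and 28.4% in those 131. In all cells outside the rule 99.96% and 99.93% were left. Other cells of the brain with metastases, outside the rule in both matrices, had medians of 19230 raw UMIs (453 listed with the naive brain) and 15142 (445 listed with the blood). They kept medians of 85.6% and 53.3% of their detected genes, so the correction bears on the other cells too, though less. A gene listed at or near 0 in a tumour cell is therefore not shown to be absent from it, and the part of the correction in such levels was not tested.

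**Figure D1:**
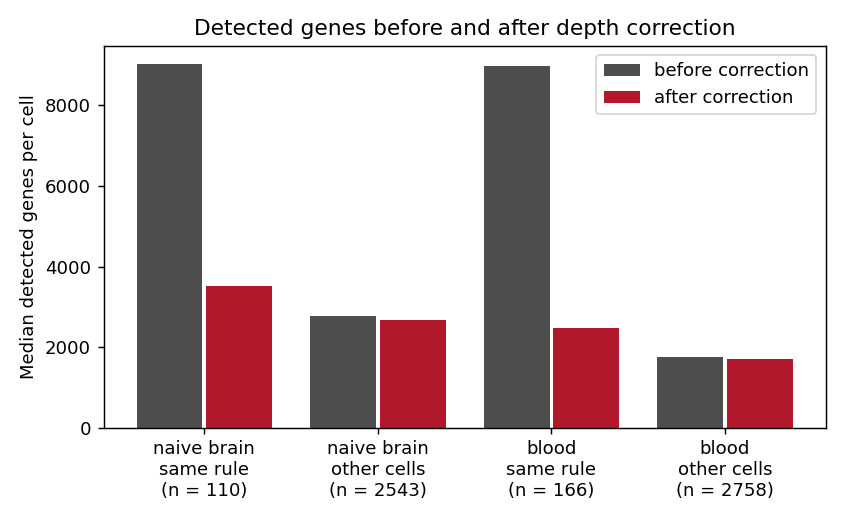
Median number of detected genes per cell before and after the authors' depth correction, for cells that meet the tumour cell rule and for other cells in the naive brain and the blood, the matrices whose annotation gives raw totals. Cells that meet the rule lost most of their detected genes (9027.5 before and 3526 after in the naive brain), while the medians of the other cells of these matrices changed little.

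Barcodes were shared between matrices. Of the 1173 members 180 (15.3%) were also listed in the naive brain or the blood, against 832 of 4760 other cells (17.5%), and 15 members were in both. The same barcodes can be compared between corrections. In the 64 shared with the naive brain, Rhox5 stood at 9.15 CP10k as corrected with the metastatic brain and 11.8 CP10k as corrected with the naive brain, and H2-D1 at 13.4 CP10k in both. Tmsb4x moved more, at 7.11 and 15.2 CP10k, as did Malat1, at 55.6 and 90.5 CP10k. Without the shared barcodes the share of tumour cells was 20.2%. Of 89 genes followed across settings, 85 then kept their log2 ratio within 1.5-fold. The exceptions were Tmsb4x, S100a8, S100a9 and Lyz2, whose ratios were lower still.

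The edge of the rule was thinly filled. Of the members, 56 had exactly 2 Krt8 UMIs, and these had medians of 9 Rhox5 and 8 Wfdc2 UMIs. Just outside, 15 cells with 1 Krt8 UMI had medians of 5 Rhox5 and 1 Wfdc2 UMIs. Another 16 cells met both gene minimums but had 2 or more Ptprc UMIs, with medians of 5 Ptprc and 4 Xist UMIs. Among members 33 (2.81%) held at least 2 UMIs of Cd3e, P2ry12, Csf1r, Csf3r, Cd79a or Cldn5, genes of other cell types. Of these genes Cldn5, a tight junction gene of brain vessels, was the most frequent, in 12 members, and 0 members had 2 or more UMIs of Cd3e, a subunit of the T cell receptor complex.

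The 20 genes with the highest ratios were each found in most tumour cells, from 79.7% for Phlda2 to 100% for Krt8 and Rhox5. Since the cells were chosen on RNA of the same matrix, these levels describe the choice and carry no test. Krt8, which the rule used, had a median of 8 UMIs per tumour cell, with 4 at the 10th percentile, 13 at the 90th and 27 at most. Rhox5, also used, had a median of 15, a 10th to 90th percentile range of 8 to 20 and a highest value of 54. Wfdc2, which encodes a secreted protein with whey acidic protein domains, had a median of 12 UMIs, from 4 to 21 between the same percentiles and up to 44. Rbp4, the carrier of retinol in plasma, had a median of 5, from 2 to 9 and up to 32. Fkbp11, a folding enzyme of the secretory pathway, likewise had a median of 5, with a highest value of 25. Sox9, a transcription factor of epithelial progenitors, had a median of 2, from 0 to 6 and up to 36. The median of each of these genes in other cells was 0.

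**Figure D2:**
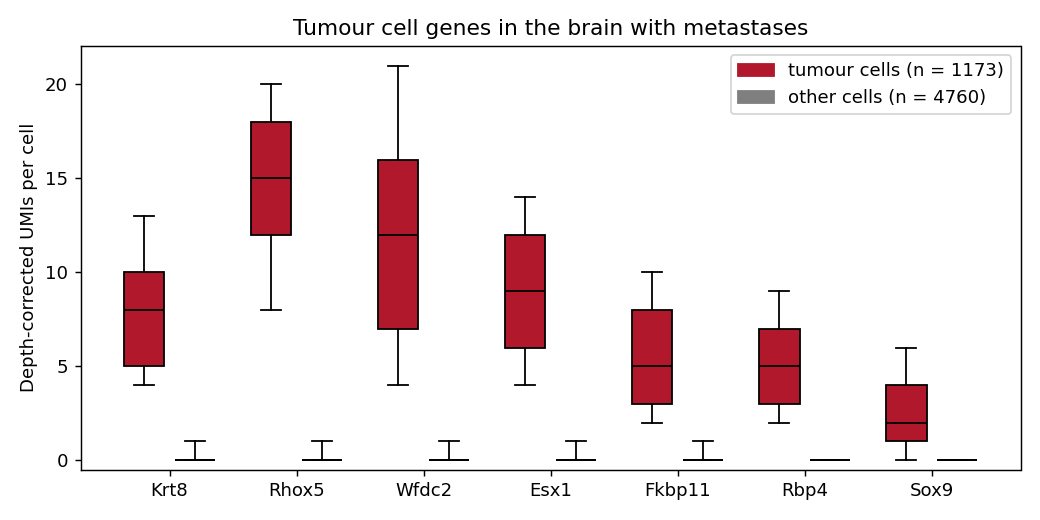
Depth-corrected UMIs per cell of 7 genes in the 1173 tumour cells and the 4760 other cells (boxes show quartiles with the median as a line, whiskers the 10th and 90th percentiles). Tumour cells have medians from 2 for Sox9 to 15 for Rhox5, and other cells have a median of 0 for each gene.

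Other cells were not free of corrected UMIs of these genes. A Rhox5 UMI was found in 24.2% of other cells and in 14.8% of T cells (940 cells with Cd3e and Cd3g), a type that should lack it. Krt8 was found in 15.99% of other cells and 4.36% of T cells, and Wfdc2 in 22.4% and 12.4%. Tumour cells had a median of 14166 corrected UMIs, other cells 13088.5 and T cells 13105. In all, 516 other cells held both a Krt8 and a Rhox5 UMI, with medians of 1 UMI each. These UMIs are corrected values, and several other cells held the same pattern, 1 UMI each of Krt8, Rhox5, Rbp4, Fkbp11, Wfdc2 and Esx1. In the naive brain, cells outside the rule had minimums of 600 raw and 6589 corrected UMIs, so the correction raised shallow cells. The part of the correction in these low counts was not tested. A low share in another type is thus read here as background, and is not shown to be captured RNA.

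Genes of the reproductive tract, germ line and placenta were among the 20 with the highest ratios over other cells. Ratios are log2 of CP10k with 0.1 added to each side, which understates the change of low genes. The 4282 genes with at least 0.5 CP10k in either set are called measured, and a 2-fold ratio serves as the call. Rhox5, on which the cells were chosen, led at 10.2 CP10k in tumour cells (10.0 to 10.4) and 0.266 CP10k in other cells (0.253 to 0.279), a log2 ratio of 4.81. Esx1, a homeobox gene of the placenta, stood at 6.24 against 0.205 CP10k, with a log2 ratio of 4.38. Rhox1, a neighbour of Rhox5 in the same family, was at 1.36 against 0.0164 CP10k, with 93.8% of tumour cells holding a UMI. Tex19.1, which restrains mobile elements in germ cells and placenta, was at 1.49 against 0.0300 CP10k, and Phlda2, an imprinted gene that limits placental growth, at 1.23 against 0.0170 CP10k. Xlr3c, an X-linked gene of a lymphocyte-regulated family, was at 0.763 against 0.0109 CP10k. Of 28 listed germline and placental genes 21 were in the matrix and 3 were measured, Rhox5, Tex19.1 and Xlr3c. All 3 were at least 2-fold higher in tumour cells. This count was set by the choice, since the rule used Rhox5, and Tex19.1 and Xlr3c reached 0.5 CP10k in tumour cells alone. Over all measured genes 34.8% were at least 2-fold higher in tumour cells and 27.9% at least 2-fold lower. A gene low in other cells is measured only if it is high in tumour cells, so counts of higher genes lean upward and are given as description.

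Of the other genes among the 20 highest, Wfdc2 stood at 8.50 CP10k in tumour cells (8.36 to 8.64) and 0.294 CP10k in other cells (0.281 to 0.308), a log2 ratio of 4.45. Fkbp11 was at 4.04 against 0.114 CP10k, Rbp4 at 3.73 against 0.105 CP10k and Oaf at 3.75 against 0.217 CP10k. Angptl2, a secreted angiopoietin-like protein, was at 1.84 against 0.0773 CP10k. Dusp9, a phosphatase that switches off MAP kinases, was at 3.15 against 0.0702 CP10k, and Fosl1, an AP-1 subunit raised by MAP kinase signalling, at 3.09 against 0.109 CP10k. Cda, cytidine deaminase, was at 1.60 against 0.0320 CP10k. Sox9 was at 1.91 against 0.0875 CP10k, a log2 ratio of 3.42. Of these genes Angptl2 and Sox9 were the least even, with a UMI in 86.0% and 84.0% of tumour cells, while the others were in 91.1 to 98.4%.

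Matrix genes were a further group. Serpinh1, the chaperone that folds collagen, stood at 10.7 CP10k in tumour cells and 0.879 CP10k in other cells, and was in 99.9% of tumour cells. Of 26 listed collagen and laminin genes 10 were measured, with a median log2 ratio of 1.95 beside 0.40 over all measured genes. Of the 10, 7 were at least 2-fold higher and 1 at least 2-fold lower, where 34.8% and 27.9% of all measured genes were. Col6a1 and Col6a3, chains of collagen VI, were at 5.38 against 0.477 and 3.43 against 0.166 CP10k. Col5a1 was at 1.13 against 0.0675 CP10k, and Col18a1, a basement membrane collagen, at 1.78 against 0.155 CP10k. Pxdn, which cross-links collagen IV, was at 1.76 against 0.0667 CP10k. Col1a2, a chain of collagen I, was the gene that was lower, at 0.0120 against 0.683 CP10k. Against the 428 endothelial cells alone, which make basement membrane themselves, the list had a median of -0.06 beside 0.09 over all measured genes. There 5 of 14 measured members were at least 2-fold higher and 4 lower, where 28.8% and 30.8% of all measured genes were.

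Genes of the mesenchymal transition went both ways. Of 22 listed genes 15 were measured, 4 at least 2-fold higher and 6 at least 2-fold lower, where 34.8% and 27.9% of all measured genes were. Twist1 and Twist2, transcription factors of the transition, stood at 1.10 against 0.104 and 0.769 against 0.0233 CP10k. Lgals1, galectin-1, was at 27.2 against 6.54 CP10k, and Vim, the filament protein vimentin, at 31.1 against 15.8 CP10k. Fn1, fibronectin, was at 0.0433 against 2.49 CP10k, and Zeb2, a repressor of Cdh1 that microglia also express, at 0.236 against 3.26 CP10k. A separate list of transcription and chromatin genes of stem-like epithelium had 8 measured genes of 26. Among these, 4 were at least 2-fold higher and 3 lower, beside the same shares, with a median log2 ratio of 1.25. Set against endothelial cells alone, 4 of 15 were higher and 11 lower, where 28.8% and 30.8% of all measured genes were. Hmga2, a chromatin protein of embryonic and tumour cells, was at 0.687 CP10k in tumour cells and 0.0401 CP10k in other cells, and Hmga1 at 1.98 against 0.153 CP10k. The Id genes, inhibitors of differentiation, were low, with Id2 at 0.0553 against 3.47 CP10k and Id3 at 0.170 against 2.84 CP10k.

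Genes of the integrated stress response, in which the factor ATF4 raises amino acid synthesis and transport, went both ways. Of 21 listed genes 15 were measured, 8 at least 2-fold higher and 4 at least 2-fold lower, with a median log2 ratio of 1.01 beside 0.40 over all measured genes. The shares over all measured genes are 34.8% higher and 27.9% lower, so the count of lower genes is near the background. Asns, asparagine synthetase, had the largest ratio and stood at 3.65 CP10k in tumour cells (3.56 to 3.74) and 0.186 CP10k in other cells (0.175 to 0.197), and was in 98.0% and 16.4% of them, with 10.5% of T cells. Phgdh and Psat1, the first enzymes of serine synthesis, were at 6.43 against 0.794 and 2.24 against 0.182 CP10k. Shmt2, a mitochondrial enzyme of one-carbon metabolism, was at 2.11 against 0.189 CP10k, and Trib3, a target of ATF4, at 0.719 against 0.0492 CP10k. Atf4 itself was at 2.46 against 1.54 CP10k. The 4 lower ones included Slc7a11, the cystine transporter, at 0.00481 against 1.16 CP10k, and Atf3, a stress-induced factor, at 0.357 against 5.61 CP10k.

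The promoter of Asns holds the letters of the element known for ATF4 at this gene. The 250 bases before its start, from RefSeq (GRCm38.p6, chr6:7693210-7693459, minus strand, written 5′ to 3′ along the gene), are given because Asns had the largest ratio of that list, though Phgdh had the higher level. Capitals mark the match to TGATGNAA, searched on both strands, which begins 23 bases before the start.
Asns: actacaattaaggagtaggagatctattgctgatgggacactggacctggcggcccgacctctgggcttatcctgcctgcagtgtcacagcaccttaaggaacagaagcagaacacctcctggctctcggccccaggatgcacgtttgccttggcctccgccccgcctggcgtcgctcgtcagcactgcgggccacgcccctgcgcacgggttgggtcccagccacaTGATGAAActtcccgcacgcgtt
Such a match was in 3.53% of all 27025 promoters of the table and in 6 of 19 genes of the list that had a promoter there. A match is a description of the letters and not a site of binding.

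Genes of proliferation were high across the list. Of 44 listed G2/M genes 39 were measured, 36 were at least 2-fold higher and 0 at least 2-fold lower, with a median log2 ratio of 2.36. Of 37 G1/S genes 29 were measured and 27 were at least 2-fold higher, with a median of 1.95. Among all measured genes 34.8% were at least 2-fold higher and 27.9% lower, with a median of 0.40. Cks1b, a partner of cyclin-dependent kinases, stood at 5.47 against 0.426 CP10k, Cenpf, a centromere protein, at 3.84 against 0.285 CP10k, and Rrm2, which makes deoxynucleotides, at 1.72 against 0.173 CP10k. Top2a, the topoisomerase of dividing cells, was at 4.04 against 0.639 CP10k. Mki67, which encodes Ki-67, was nearly level, at 0.662 against 0.499 CP10k. Among cyclins and their kinases, Ccnd1 was at 4.70 against 1.15 CP10k and Cdk4 at 4.63 against 0.876 CP10k, and the inhibitors Cdkn1a and Cdkn1b were at 1.10 against 3.89 and 0.191 against 1.02 CP10k.

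Not every tumour cell carried these transcripts. For shares, cells were thinned to 13716 corrected UMIs, which kept 1056 members and left out 117, and kept 1861 other cells and left out 2899. Top2a was then found in 73.5% of tumour cells and 20.6% of other cells (72.2% and 22.7% without thinning), and Cdk1, the kinase that starts mitosis, in 78.0% and 17.1% (77.3% and 11.1%). Mki67 was found in 52.7% and 20.5% (50.9% and 12.5%). All of Mki67, Top2a and Cdk1 were present in 40.9% of tumour cells and none of them in 10.98%. The summed G2/M genes ranged from 0 to 379 UMIs per thinned tumour cell, with a median of 114, a 10th percentile of 15 and a 90th of 248. Pcna, the clamp of DNA replication, was found in 40.2% and 41.2% of thinned cells (40.6% and 27.9% without thinning), so its order depended on which other cells were kept. Without thinning, Top2a was in 24.4% of T cells and Mki67 in 18.5%, and T cells can divide themselves.

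Genes of growth and biosynthesis were higher in tumour cells. Of 24 listed MYC and nucleolar genes all 22 measured were at least 2-fold higher in tumour cells, with a median log2 ratio of 2.10, and the same count was at least 2-fold higher against endothelial cells alone. Myc, the transcription factor, stood at 2.22 CP10k in tumour cells and 0.257 CP10k in other cells, and was in 93.7% and 18.3% of them. Npm1, nucleophosmin, was at 29.8 against 6.97 CP10k, and Srm, spermidine synthase, at 4.61 against 0.418 CP10k. Of 22 cholesterol and fatty acid genes 16 were measured and 14 were at least 2-fold higher, with a median of 2.04. The share of higher genes among all measured was 34.8% against other cells and 28.8% against endothelial cells alone. Fdps, farnesyl diphosphate synthase, was at 6.86 against 0.671 CP10k, Fasn, fatty acid synthase, at 1.66 against 0.158 CP10k and Sqle, squalene epoxidase, at 1.44 against 0.134 CP10k.

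Glycolytic enzymes were higher and the main glucose transporter of brain vessels was lower. Of 31 listed hypoxia and glycolysis genes 22 were measured, 13 at least 2-fold higher and 1 at least 2-fold lower, where 34.8% and 27.9% of all measured genes were. Their median log2 ratio was 1.13, beside 0.40 over all measured genes. Tpi1 and Ldha, enzymes of glycolysis and lactate formation, stood at 15.1 against 2.50 and 17.4 against 5.003 CP10k, and Slc16a3, a lactate exporter, at 5.89 against 1.10 CP10k. Egln3 and Adm, genes that low oxygen raises, were at 1.14 against 0.0583 and 1.65 against 0.121 CP10k. Adm was uneven, with a UMI in 57.5% of tumour cells and up to 85 in 1 cell. Slc2a1, the transporter GLUT1, was at 0.904 against 2.54 CP10k, and stood at 19.9 CP10k in endothelial cells.

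**Figure D3:**
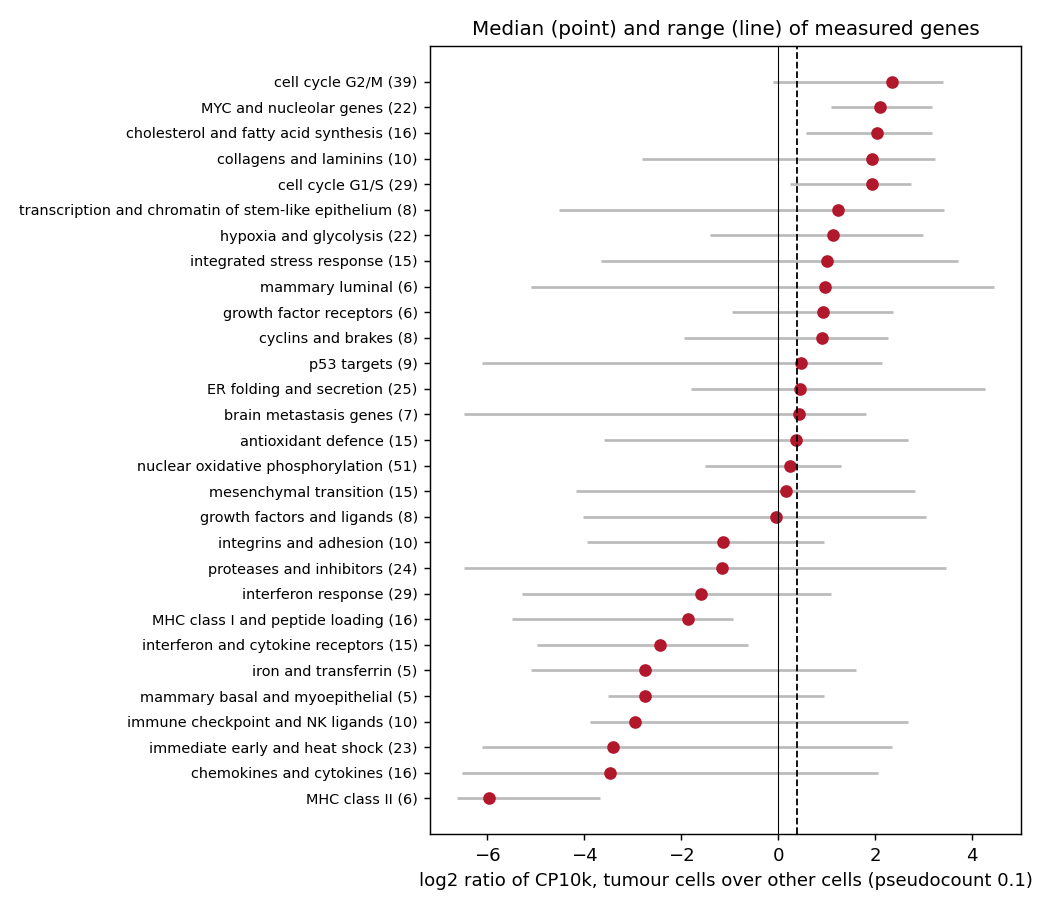
Log2 ratio of CP10k, tumour cells over other cells, for gene lists with at least 5 measured genes (number in brackets). Points are medians, lines run from the lowest to the highest measured gene, the dashed line is the median of all 4282 measured genes (0.40), and the lists range from cell cycle G2/M at 2.36 down to MHC class II at -5.96.

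The lowest genes were those of leukocytes. Most of the other cells are CD45 cells, with a median of 6 Ptprc UMIs, and the rule took only cells with at most 1. Low leukocyte genes are therefore set by the choice. Il1b, interleukin-1 beta, stood at 0.0950 CP10k in tumour cells and 19.7 CP10k in other cells, a log2 ratio of -6.67. Cd74, the class II chaperone, was at 0.221 against 31.4 CP10k, Lyz2, lysozyme, at 0.375 against 41.7 CP10k and S100a9, an alarmin of neutrophils, at 0.566 against 59.5 CP10k. Srgn, Cd52, Cxcl2, Tyrobp and Ctss had log2 ratios between -6.66 and -6.47. Tmsb4x, the actin-binding thymosin beta 4, is not limited to leukocytes. It stood at 1.31 CP10k in tumour cells, against 142 CP10k in other cells and 88.6 CP10k in endothelial cells, and was in 27.1% of tumour cells. In the separately corrected naive brain and blood, cells of the same rule had 24.2 and 22.1 CP10k of Tmsb4x. Other cells there had 161 and 220 CP10k. Tmsb4x was thus lower in each matrix, but its level in tumour cells differed widely between them. The part of the correction in this was not tested.

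MHC class I genes were lower in the tumour cells throughout. Of 18 listed genes of class I and peptide loading 16 were measured, 15 at least 2-fold lower and 0 at least 2-fold higher, with a median log2 ratio of -1.86. Of all measured genes 27.9% were at least 2-fold lower and 34.8% higher. Against endothelial cells alone 12 of 16 class I genes were at least 2-fold lower, with a median of -1.38, where 30.8% of all measured genes were lower. H2-K1, a classical class I heavy chain, stood at 1.67 CP10k in tumour cells (1.60 to 1.73) and 20.9 CP10k in other cells (20.75 to 20.98). It had a median of 2 UMIs per tumour cell, from 0 to 5 between the 10th and 90th percentiles and up to 27. H2-D1, the other classical chain of this strain, was closer, at 13.2 against 31.96 CP10k, with a median of 17 UMIs, from 10 to 30 and up to 60. B2m, the light chain of all class I molecules, was at 5.62 against 28.5 CP10k. H2-Q7 and H2-T23, nonclassical chains, were at 0.00722 against 4.27 and 0.0102 against 4.86 CP10k. Tap1, a subunit of the peptide transporter, was at 0.534 against 1.72 CP10k. The tumour cells thus held H2-D1 and B2m RNA in every cell and H2-K1 in 82.9%.

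Interferon genes were lower as a list. Of 33 listed genes 29 were measured, with a median log2 ratio of -1.58 beside 0.40 over all measured genes. Of the 29, 22 were at least 2-fold lower and 1 at least 2-fold higher, where 27.9% and 34.8% of all measured genes were. Bst2, which encodes tetherin, was that higher gene, at 14.8 CP10k in tumour cells and 6.83 CP10k in other cells, in 99.8% and 96.8% of them. Cxcl10, a chemokine that draws CXCR3+ T cells, was at 0.330 against 8.34 CP10k. Of 15 measured interferon and cytokine receptor genes 14 were at least 2-fold lower, beside the same 27.9% of all measured genes. Ifngr1, a chain of the interferon gamma receptor, was at 0.0162 against 3.57 CP10k, and Ifnar1, a chain of the type I receptor, at 0.0235 against 0.875 CP10k. Cd274, which encodes PD-L1, was at 0.0198 against 0.773 CP10k, and Cd47, the signal that restrains phagocytes, at 1.39 against 4.43 CP10k. Raet1e and Raet1d, ligands of the NK receptor NKG2D, were at 0.680 against 0.0211 and 0.660 against 0.0334 CP10k. Against endothelial cells the interferon list had a median of -1.60, with 23 of 29 at least 2-fold lower, where 30.8% of all measured genes were.

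Ligands that act on other cells went both ways. Il34 and Csf1, both ligands of the receptor CSF1R on which microglia depend, stood at 0.624 against 0.0729 and 1.30 against 0.597 CP10k. Il34 was found in 56.0% of tumour cells, 4.60% of other cells and 1.17% of T cells. Wnt7b, a WNT ligand that acts on brain endothelium in development, was at 0.915 against 0.0216 CP10k, and Pdgfa, a platelet-derived growth factor, at 2.42 against 0.409 CP10k. Of 36 listed growth factors 8 were measured, 4 at least 2-fold higher and 4 at least 2-fold lower, where 34.8% and 27.9% of all measured genes were. Against endothelial cells 3 of 12 were at least 2-fold higher and 8 lower, where 28.8% and 30.8% of all measured genes were. Of 16 measured chemokines and cytokines 13 were at least 2-fold lower than in other cells and 3 at least 2-fold higher. Among all measured genes 27.9% were lower and 34.8% higher. Beside endothelial cells alone, 6 of 12 were at least 2-fold lower and 3 higher, where 30.8% and 28.8% of all measured genes were. Ccl2, which draws monocytes, was at 2.42 against 6.19 CP10k, with 13.3 CP10k in the 845 microglia and 0.419 CP10k in endothelial cells. Among 28 listed growth factor receptors 6 were measured, 3 at least 2-fold higher than in other cells and 3 within 2-fold. The share of higher genes among all measured was 34.8%. Fgfr1, a fibroblast growth factor receptor, was at 1.29 against 0.169 CP10k, Epha2 at 0.589 against 0.115 CP10k and Ddr1, a collagen receptor, at 0.514 against 0.0867 CP10k. These were the 3 higher ones. Set against endothelial cells alone, 4 of 11 receptors were higher and 7 lower, where 28.8% and 30.8% of all measured genes were.

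Immediate early genes were low and a set of chaperones high. Of 23 measured genes of this list 17 were at least 2-fold lower and 3 at least 2-fold higher, where 27.9% and 34.8% of all measured genes were. Fos and Egr1, factors that many stimuli induce rapidly, stood at 0.263 against 20.1 and 0.0505 against 7.49 CP10k. Btg2, a brake on growth, was at 0.0583 against 10.8 CP10k. The higher ones were Hsph1, Hsp90aa1 and Hsp90ab1, chaperones of the heat shock families, at 1.70 against 0.254, 13.2 against 3.66 and 40.6 against 14.4 CP10k. Of 19 genes listed for brain metastasis 7 were measured, 3 at least 2-fold higher and 3 lower, beside the same shares over all measured genes. Angptl4, Hbegf and Gja1 were higher, at 0.503 against 0.0708, 0.576 against 0.156 and 0.733 against 0.218 CP10k, and Ptgs2, Lcn2 and Ctss were lower, at 0.00962 against 1.96, 0.0307 against 4.34 and 0.135 against 20.8 CP10k.

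The genes that varied most among tumour cells included some high in a minority and some found in most cells. The measure was the Fano factor, the variance over the mean of UMIs in the 1056 thinned cells, whose median over 3934 genes was 0.747. The 15 highest, in falling order, began with Ttr (852), Malat1 (176) and Col1a1 (86.4). They went on with S100a9, S100a8, Rsad2, Ccl5, Tmsb4x, Ifit1, Isg15, Ptcra, Ccl2, Mt1, AC160336.1 and Hist1h2ap (14.0). Of these Rsad2, Ifit1 and Isg15 are interferon genes, S100a8 and S100a9 alarmins of neutrophils, and Hist1h2ap a histone of S phase. Hist1h2ap had at least 10 UMIs in 419 tumour cells and 116 other cells. Malat1, a nuclear RNA, had at least 10 UMIs in 882 tumour cells and 4627 other cells.

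The interferon genes varied together within the tumour cells. Rsad2 encodes the antiviral enzyme viperin, Ifit1 a protein that binds viral RNA, and Isg15 a ubiquitin-like modifier. Isg15 had a median of 0 UMIs per tumour cell, with 11 at the 90th percentile and up to 84, and was in 34.1% of thinned tumour cells (33.0% without shared barcodes). All of these genes were present in 141 members, some in 287 (24.5%) and none in 745 (63.5%). Over the 1056 thinned cells of this library Spearman's correlation was 0.80 for Rsad2 with Ifit1, 0.68 for Ifit1 with Isg15 and 0.66 for Rsad2 with Isg15.

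The promoters of the trio are shown because their members move together from cell to cell. They come from RefSeq (GRCm38.p6), cover the 250 bases before each start and are written 5′ to 3′ along the gene. Rsad2 lies at chr12:26456453-26456702 on the minus strand, Ifit1 at chr19:34640639-34640888 on the plus strand and Isg15 at chr4:156200819-156201068 on the minus strand. Capitals mark matches on either strand to GAAA, any 2 bases and GAAA again, the core letters of the interferon-stimulated response element.
Rsad2: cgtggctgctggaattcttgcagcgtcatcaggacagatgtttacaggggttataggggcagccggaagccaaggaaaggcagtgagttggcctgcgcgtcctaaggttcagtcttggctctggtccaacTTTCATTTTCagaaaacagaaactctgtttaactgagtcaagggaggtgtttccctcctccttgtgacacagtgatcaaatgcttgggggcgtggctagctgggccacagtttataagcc
Ifit1: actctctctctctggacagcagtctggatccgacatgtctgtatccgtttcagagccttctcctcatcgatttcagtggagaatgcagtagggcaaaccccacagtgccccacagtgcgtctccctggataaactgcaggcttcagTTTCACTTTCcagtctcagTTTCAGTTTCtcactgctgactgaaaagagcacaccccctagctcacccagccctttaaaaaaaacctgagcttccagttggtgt
Isg15: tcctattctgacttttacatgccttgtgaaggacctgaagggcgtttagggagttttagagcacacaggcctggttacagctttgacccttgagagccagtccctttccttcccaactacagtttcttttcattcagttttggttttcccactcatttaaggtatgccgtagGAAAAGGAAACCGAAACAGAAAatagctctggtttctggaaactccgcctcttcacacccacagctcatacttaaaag
Rsad2 has 1 match, which begins 120 bases before the start, and Ifit1 has 2, at 104 and 85 bases, all on the opposite strand. Isg15 has 3 matches on its own strand, at 78, 72 and 66 bases, which overlap and form 1 run of capitals. A match was in 3.04% of all 27025 promoters and in 14 of 25 interferon list genes that had one.

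MHC class I went along with interferon genes inside the tumour cells. Cells with the whole trio had medians of 27 H2-D1, 13 B2m and 4 H2-K1 UMIs, against 15, 6 and 1 in cells with none of it. Bst2 had a median of 41 UMIs in the first set and 13 in the second. The summed class I list had a median of 68 UMIs in cells with the trio, 47 in cells with some of it and 29 in cells with none. Over the 1056 thinned cells, Spearman's correlation of the summed interferon list with the summed class I list was 0.78. These cells share 1 library, and both sums are of the same cell. The immune marker sum had a median of 2 UMIs in cells with the trio and 1 in cells with none, and a correlation of 0.24 with the interferon sum. Cd3e was found in 2.13% of the cells with the trio and 0.403% of those with none. The part of other cells' RNA in the interferon pattern was not tested. Cxcl10 had a median of 0 UMIs in each of these sets. Krt8 and Rhox5 had medians of 7 and 12 UMIs in cells with the trio and 8 and 15 in cells with none.

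**Figure D4:**
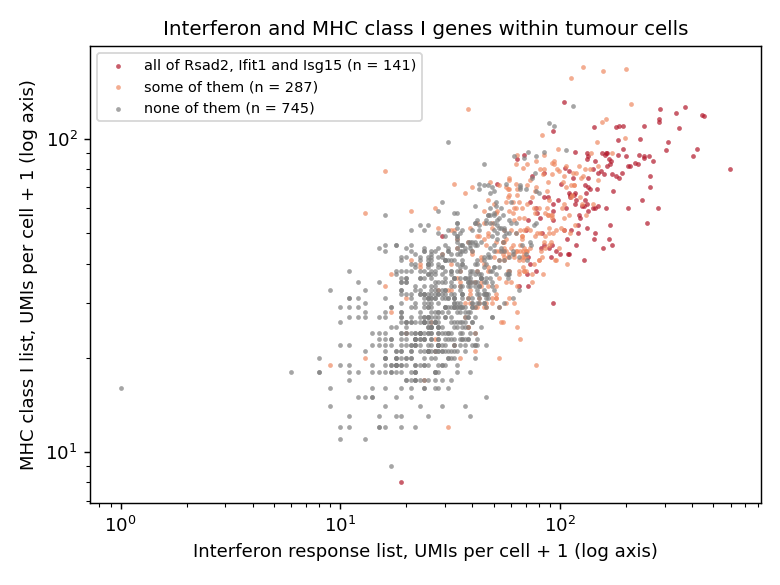
Summed UMIs of the MHC class I list against summed UMIs of the interferon response list, each plus 1 on a log axis, for the 1173 tumour cells (1 point per cell). Cells with all of Rsad2, Ifit1 and Isg15 (141) lie at the upper right, with medians of 134 interferon and 68 class I UMIs, and cells with none (745) at the lower left, with medians of 27 and 29. The grouping used interferon genes, so the order along the interferon axis follows in part from it.

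Other uneven genes marked small sets of cells. Ptcra, the pre-T cell receptor alpha chain of thymocytes, had at least 10 UMIs in 16 tumour cells and 1 other cell. Those 16 had a median of 18.5 Ptcra UMIs, with Cd3e and Trac in 0 of them and medians of 5 Krt8 and 11 Rhox5 UMIs. Col1a1, the main chain of collagen I, had at least 10 UMIs in 14 tumour cells and 77 other cells. Those 14 had a median of 74.5 Col1a1 UMIs, while its partner Col1a2 and the fibroblast gene Dcn were found in 0 of them and Col3a1 in 35.7%. A count of 0 among 14 or 16 cells sets no close limit on the share.

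Chemokine and metal genes were more widespread. Ccl2 had at least 10 UMIs in 120 tumour cells, Ccl5 in 60 and the metallothionein Mt1 in 272. Cells high in Ccl5, a chemokine for T cells, had a median of 10 Isg15 UMIs, and Cd3e was found in 6.67% of them. S100a8 and S100a9 each had at least 10 UMIs in 17 tumour cells, whose immune marker sum had a median of 61 UMIs against 2 over all members. Both genes are themselves neutrophil markers, so the high sum may follow from how these cells were picked. It is no separate sign of leukocyte RNA. Ttr, the thyroid hormone carrier of choroid plexus, had at least 10 UMIs in 8 tumour cells, with 1599 in the highest, and in 235 other cells. AC160336.1, a transcript without a role given here, had at least 10 UMIs in 284 tumour cells.

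The tumour genes did not vary as 1 block. Over the 1056 thinned cells Sox9 ran against Esx1 (Spearman's correlation -0.37) and Wfdc2 (-0.34), and with Rbp4 (0.24). Rhox5 ran with Esx1 and Fkbp11 (both 0.39) and Wfdc2 with Esx1 (0.37). By ranges of Sox9, the 188 cells at 0 UMIs had medians of 10 Esx1 and 14 Wfdc2 UMIs. The 533 cells with 1 to 2 had medians of 10 and 13, the 311 with 3 to 5 had 7 and 10, and the 141 with 6 or more had 5 and 6. Rbp4 had medians of 4, 5, 5 and 6 over the same ranges, and Krt8 of 7, 8, 8 and 8. Top2a had medians of 3.5, 5 and 4 UMIs in the first 3 ranges and 0 at the top. The ranges are steps of 1 count and not cell types, and 533 of 1173 cells lie 1 or 2 UMIs from 0. Detected genes per cell after depth correction were close, with medians of 3996, 4073, 4191 and 4258. These do not show whether raw depth was even over the ranges, which was not tested.

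**Figure D5:**
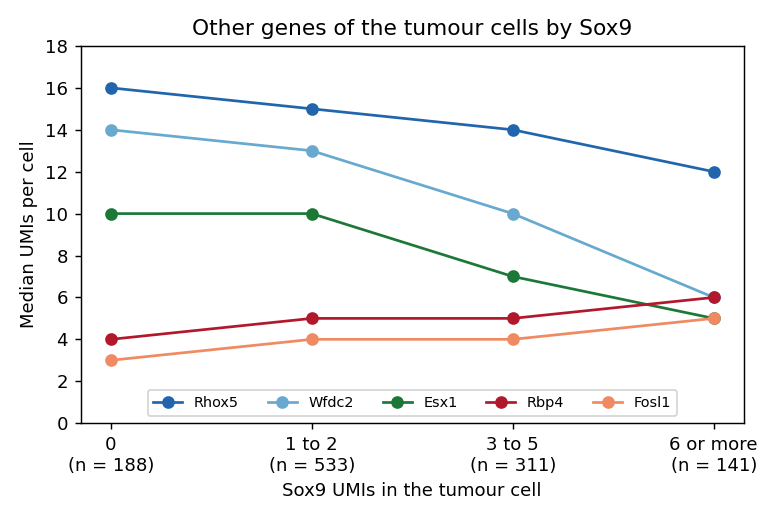
Median corrected UMIs per tumour cell of Rhox5, Wfdc2, Esx1, Rbp4 and Fosl1, by the number of Sox9 UMIs in the cell. Wfdc2 goes from 14 to 6 and Esx1 from 10 to 5 from the lowest to the highest range, while Rbp4 goes from 4 to 6 and Fosl1 from 3 to 5.

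Lists of biosynthesis and stress varied with little tie to division. Over thinned tumour cells the summed cholesterol list ran from a 10th percentile of 11 to a 90th of 75.5 UMIs, the integrated stress response from 21 to 66, and hypoxia and glycolysis from 137 to 300. The thinned other cells had medians of 6, 25 and 68 UMIs in these lists, and tumour cells of 38, 34 and 196.5. Correlations with the G2/M sum in tumour cells were 0.12 for cholesterol, -0.011 for the stress response and -0.097 for hypoxia and glycolysis. They were -0.19 for interferon genes and -0.21 for class I.

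The same rule also found cells in the naive brain and the blood, matrices that were corrected separately. It found 110 of 2653 cells of the naive brain, 4.15% (3.42 to 4.98%), and 166 of 2924 cells of the blood, 5.68% (4.87 to 6.58%). Rhox5 stood at 11.96 CP10k in the 110 and 12.7 CP10k in the 166, and Wfdc2 at 9.78 and 9.66 CP10k, beside 10.2 and 8.50 CP10k in the brain with metastases. Of the 110 cells 65 had a barcode that is also in the brain with metastases and 30 had one found in no other matrix. Of the 166 these were 125 and 28. All 64 members listed with the naive brain met the rule there, as did 123 of 131 listed with the blood. Of other cells of the metastatic brain listed there, 1 of 454 and 2 of 447 did. Restricted to barcodes found in 1 matrix, the rule took 1.60% of the naive brain and 1.34% of the blood, and Rhox5 in those cells was at 11.4 and 11.9 CP10k.

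Each cell of the naive brain and blood had been called to 1 hashtag, an antibody with a 15-base oligonucleotide that marks its sample. The oligonucleotides are shown as deposited because the arm of a cell rests on them.
M-HTO-4 (depleted, naive brain): aaagcattcttcacg
M-HTO-1 (control, naive brain): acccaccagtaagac
M-HTO-8 (depleted, blood): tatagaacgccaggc
M-HTO-7 (control, blood): gagtctgccagtatc
Cells of the rule were 87 of 1868 under the depleted label in the naive brain (4.66%, 3.75 to 5.71%), against 23 of 785 under the control label (2.93%, 1.87 to 4.36%). In the blood they were 85 of 1553 (5.47%, 4.39 to 6.72%) against 81 of 1371 (5.91%, 4.72 to 7.29%). Hashtag counts were low in them. Their median was 135.5 against 518 in other cells of the naive brain, and 19 against 484 in other cells of the blood. Their median raw UMIs were 158738 against 9066 in other cells of the naive brain, and 167406 against 4668.5 in other cells of the blood. Members of the metastatic brain listed there were thus called to a hashtag of another tissue, 50 to M-HTO-4 and 14 to M-HTO-1 of 64, and 70 to M-HTO-8 and 61 to M-HTO-7 of 131. The part of the low hashtag counts in these calls was not tested. Which sample the 180 shared members came from could not be settled, so part of them may not be cells of the brain with metastases.

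Markers of other cell types were low in the tumour cells, with a few single exceptions. Summed over its list, the T cell markers stood at 0.0950 CP10k in tumour cells and 11.96 CP10k in other cells, the NK markers at 0.0499 and 6.19 CP10k, and the monocyte markers at 0.917 and 107 CP10k. The microglia markers were at 1.92 and 107 CP10k, of which Olfml3, a secreted protein gene, made up 1.03 CP10k in tumour cells. The endothelial markers were at 2.39 and 23.5 CP10k, of which Egfl7, a secreted vessel protein gene, made up 1.94 CP10k in tumour cells, where it was in 96.0% of cells. The dendritic list was at 3.26 and 3.05 CP10k. Fscn1, which bundles actin and is also known from invasive tumour cells, made up 3.22 CP10k of it. The neuron list was at 1.22 and 0.388 CP10k, with Tubb3, a neuronal tubulin, at 1.20 CP10k, and the astrocyte list at 0.796 and 0.600 CP10k, with Gja1 at 0.733 CP10k. No list other than these last 3 was higher in tumour cells. Per cell, 97.4% of members had no UMI of a T cell marker, 87.0% none of a monocyte marker and 23.4% none of a microglia marker, with a median of 1 UMI.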

How the data were processed

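Cells were profiled with CITE-seq on the 10x 3' v3 assay, per the labels' protocols. Cell Ranger 3.1, Seurat 3.1.1 and the build mm10 are named in the submitters' processing notes. Each deposited value is a natural log of 1 plus corrected UMIs, where the authors' correction for depth ran matrix by matrix. After the log was undone, 100% of values were whole numbers within 1e-06. Raw UMI and hashtag counts per cell, and hashtag calls, came from the authors' deposited annotation of the naive brain and the blood. Corrected totals there are a normalized score that the authors deposited as whole numbers. Of that annotation 42 columns were not used.

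UMIs were summed over a set of cells and scaled to 10000 (CP10k). Log2 ratios used a pseudocount of 0.1 CP10k, a gene was measured at 0.5 CP10k or more on at least 1 side, and 2-fold was the call. Levels carry exact Poisson and shares exact Clopper-Pearson intervals at 95%, for counting error only. Thinning drew 13716 corrected UMIs per cell without replacement. No cell was removed. Doublets were not called, since the raw counts this needs were not used. T cells, microglia and endothelial cells were set by fixed marker UMIs. The procedure was run on simulated data drawn from the pooled levels of the other cells. There 200 of 200 genes changed by a log2 ratio of 2 passed the 2-fold call, among 2964. The simulation held no depth correction and no spread between cells, so it checks the arithmetic only.

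Named genes are the 20 highest and 10 lowest ratios, the 15 highest Fano factors and members of 48 gene lists. Mitochondrial, ribosomal protein, haemoglobin, immunoglobulin and T cell receptor genes and names of the Gm and Rik kinds were not named by size. Members and lists were chosen with earlier results of these data known. Python 3.11.15, numpy 2.4.6, scipy 1.17.1 and pandas 2.3.3 were used. Some listed genes are not reported here.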

Additional observations from a re-analysis of the deposited data

How the results depend on the processing

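No paired analysis was possible because the brain with metastases is 1 pooled sample with no replicates. Depth limits low genes, since correction removed most detected genes of the deepest cells. In tumour cells 1491 genes were at least 2-fold higher and 1193 lower. These became 362 and 449 with a pseudocount of 1 CP10k, which damps low genes, and 2269 and 2449 with a minimum of 0.1 CP10k or none, which admits more genes. They stayed within 1.5 times under the other settings tried. The 13 lists with a median of 1 or more became 5 with the pseudocount of 1, 7 with the minimum of 0.1 and 4 with none. Among the 13, keratins, imprinted growth genes, astrocyte markers and neuron markers rested on 1 measured gene each. For keratins this gene was Krt8, which the rule used, and the germline and placental list includes Rhox5, also used. The share of tumour cells was 15.9% with at least 5 UMIs of each gene and 0 of Ptprc, and 21.7% with at least 1 UMI of each. In the naive brain the strict rule gave 3.13% and leaving out shared barcodes 1.60%. In the blood these were 2.74% and 1.34%.

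Some list medians and gene ratios turned sign. Imprinted growth genes had a main median of 3.51, from 1 measured gene. They were at -1.34 with the minimum of 0.1, -0.39 with none and -0.13 against endothelial cells, a comparison added after seeing the data. The stem-like epithelium list, with a main median of 1.25, was at -0.12 and -0.11 with those minimums. It was at -0.56 without shared barcodes and -2.82 against endothelial cells. With no minimum, keratins were at -0.079, astrocyte markers at -0.28 and neuron markers at -0.16. Their main values were 4.41, 1.39 and 3.34, each from 1 measured gene. Against endothelial cells, collagens and laminins were at -0.064, proteases and inhibitors at 0.94, Ccl5 at 1.79 and Ccl2 at 2.28. The cause of each turn beyond fewer or more genes tested was not tested. Under the stricter rule 15 of 89 genes moved by over 1.5-fold and 0 turned, with Rhox5 at 3.94, as the members it leaves out then count among the other cells.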

Other observations

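Mitochondrial respiration genes of the nucleus were close between the sets. Of 51 measured genes 44 were within 2-fold, with a median log2 ratio of 0.24 beside 0.40 over all measured genes. Atp5b, a subunit of ATP synthase and 1 of the 5 genes at least 2-fold higher, stood at 10.6 CP10k in tumour cells and 4.63 CP10k in other cells. Transcripts of the mitochondrial genome made up 1.83% of corrected UMIs in tumour cells, 5.97% in other cells and 3.95% in endothelial cells. Ribosomal protein genes made up 22.9% in tumour cells, 16.8% in other cells and 25.9% in T cells. Of 9 measured p53 targets 4 were at least 2-fold higher and 4 at least 2-fold lower, where 34.8% and 27.9% of all measured genes were. Phlda3, a brake on AKT signalling, was at 1.11 against 0.175 CP10k and Gdf15, a stress-induced ligand, at 0.752 against 0.240 CP10k. Trp53 itself was at 2.34 against 0.712 CP10k. The lower ones were Cdkn1a at 1.10 against 3.89, Mdm2 at 0.285 against 0.735, Pmaip1 at 0.0132 against 0.529 and Btg2 at 0.0583 against 10.8 CP10k. Of 15 measured antioxidant genes 5 were at least 2-fold higher, 4 at least 2-fold lower and 6 within 2-fold, with a median log2 ratio of 0.37. This list is near all measured genes, of which 34.8% were higher and 27.9% lower, with a median of 0.40. Gsto1 and Gstp1, glutathione transferases, were at 3.15 against 0.405 and 2.73 against 0.623 CP10k. Mgst1, a membrane-bound glutathione transferase, was at 0.0565 against 0.832 CP10k and Gpx1, a glutathione peroxidase, at 2.45 against 6.74 CP10k.

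S100a6, a calcium-binding protein, was among the most abundant messages of the tumour cells, at 64.0 CP10k against 15.5 CP10k in other cells. It was looked at after its level was seen. Of the 20 genes with the highest ratios, Rhox5, Esx1, Dusp9 and Rhox1 lie on the X chromosome. Over that chromosome 38 of 103 measured genes were at least 2-fold higher (36.9%), beside 34.9% of all 4184 placed genes.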
